A study of Mus musculus with 6 samples.

Results

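Mucins are large glycoproteins whose protein backbone carries dense chains of O-linked sugars, and the 9 mucin genes Muc1, Muc3, Muc4, Muc5ac, Muc5b, Muc13, Muc15, Muc16 and Muc20 were read by symbol from a table of 33924 gene names. Bulk RNA was sequenced from lungs of FVB/NJ mice given saline and from lung tumours of FVB/NJ mice given urethane, a chemical carcinogen, at 1 g per kg by intraperitoneal injection, with both groups harvested at 6 months. The control lung group held replicates 1, 2 and 3 and the tumour group replicates 1, 2 and 4. The labels name no engineered allele in either group, give neither the age at treatment nor the share of tumour cells in a sample, and do not say whether each library came from its own animal, so p-values measure the spread between these libraries. The comparison addresses which genes differ in expression between control lung and urethane-induced tumour.

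Membrane mucins such as Muc1, Muc4 and Muc20 are anchored in the apical membrane of epithelial cells, where they form part of the cell coat and can bind receptor tyrosine kinases. Gel-forming mucins such as Muc5ac and Muc5b are secreted by airway secretory cells and link into polymers that give airway mucus its gel. In healthy mouse lung Muc5b is the main gel-forming mucin of the conducting airways and Muc1 is a usual surface mucin of alveolar and airway epithelium, while Muc5ac is known for its rise in allergic airways.

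The libraries held 38996532 to 62336537 counted reads, so that 3 reads corresponded to 0.0456 to 0.0815 counts per 1000000 counts (CPM) after scaling between libraries. Tumour replicate 2 differed from the other libraries in sex-linked transcripts, with 3360 CPM of Xist against at most 32.9 CPM elsewhere. It had 0.180 CPM of the Y-linked gene Ddx3y, against 87.1 to 171.1 CPM elsewhere. Tumour replicate 2 thus had a female pattern and all other libraries a male pattern, so the tumour group was mixed in sex and the control group was not. Tumour replicate 1 differed from the other tumours in a gland transcript, with 75.4 CPM of the salivary and gland gene Dcpp1 against at most 0.152 CPM in the others, and had the lowest summed level of alveolar type 2 (AT2) cell markers of the tumours. That AT2 marker sum was 28562 CPM in tumour replicate 1 and 49900 and 65068 CPM in replicates 4 and 2, against 9921 to 16461 CPM in control lung, so the label of lung tissue matched its defining markers in every library. Values without single libraries are given for the tested mucins, and for other genes where a left-out library changed a call or moved a printed fold change by over 1.5 times.

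Across the table, edgeR's quasi-likelihood test with Benjamini-Hochberg adjustment called 42% of the 20001 tested genes different between tumour and control at an adjusted p of 0.05, with 18.1% higher and 23.8% lower. Of the 9 mucins 7 passed the low count filter. Of these, 4 were higher in tumour (Muc1, Muc4, Muc20 and Muc5ac), 2 were lower (Muc15 and Muc16) and Muc5b was not called. Their median log2 fold change was 1.86, beside 0.01 over all tested genes. The CPM of the groups did not overlap for 6 of the 7, against 56% of all tested genes. Muc15 and Muc16 are among these 6. Both passed the low count filter only through their control libraries, so after the filter they could only come out lower. They therefore add no support to the count of lower mucins or to that of groups without overlap. RNA from a whole sample cannot tell fewer cells of a type from less RNA per cell.

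**Figure D1:**
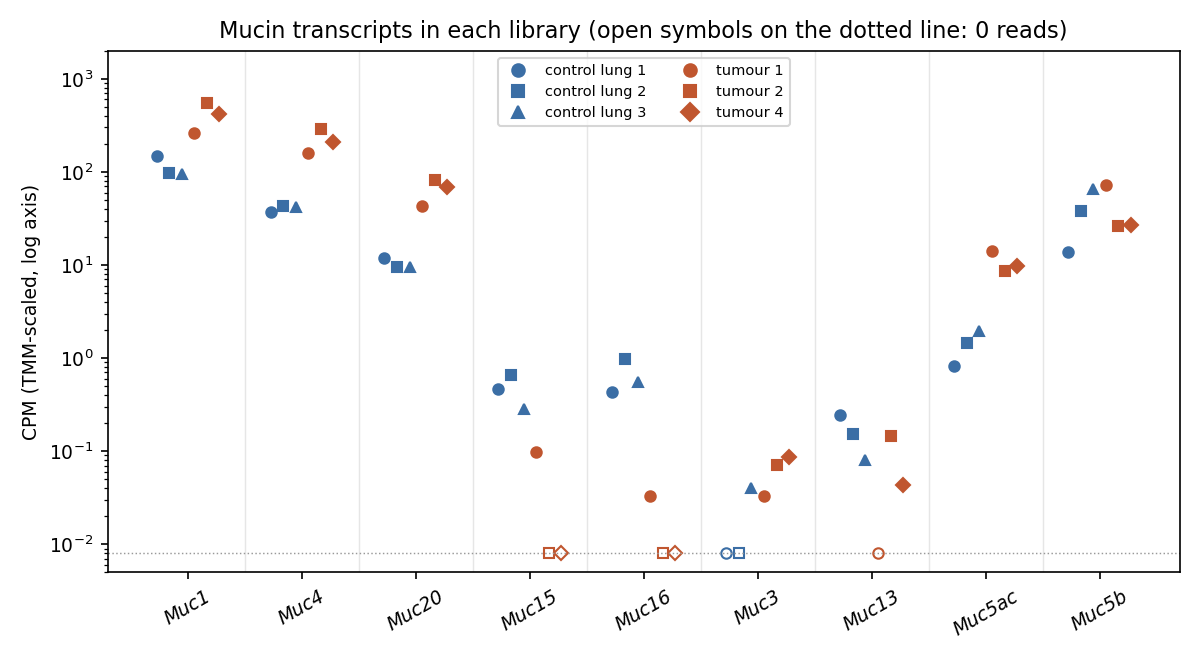
CPM of the 9 mucins (log axis) in each of the 6 libraries, with control lung in blue, tumour in orange, the symbol giving the replicate and open symbols on the dotted line marking 0 reads. Muc1, Muc4, Muc20 and Muc5ac lie higher in every tumour than in every control, Muc15 and Muc16 lie lower, and the Muc5b libraries are mixed.

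The membrane mucins Muc1, Muc4 and Muc20 rose together, and the 250 bases before their transcription starts are printed to show the promoters of the members with the highest tumour levels. They are RefSeq sequences of the build GRCm38.p6, which is not the mm9 build of the deposited gene models. The Muc1 stretch is chr3:89228806-89229055 on the plus strand with a GC content of 54.8%, that of Muc4 is chr16:32735636-32735885 on the plus strand with 43.6%, and that of Muc20 is chr16:32797436-32797685 on the minus strand with 57.2%. Each is written 5′ to 3′ toward the start, with capitals marking a match to any of the searched motifs.
Muc1: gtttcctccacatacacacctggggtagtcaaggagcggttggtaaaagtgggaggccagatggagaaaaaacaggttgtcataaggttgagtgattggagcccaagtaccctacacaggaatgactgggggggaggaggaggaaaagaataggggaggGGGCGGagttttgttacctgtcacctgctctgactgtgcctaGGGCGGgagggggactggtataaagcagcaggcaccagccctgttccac
Muc4: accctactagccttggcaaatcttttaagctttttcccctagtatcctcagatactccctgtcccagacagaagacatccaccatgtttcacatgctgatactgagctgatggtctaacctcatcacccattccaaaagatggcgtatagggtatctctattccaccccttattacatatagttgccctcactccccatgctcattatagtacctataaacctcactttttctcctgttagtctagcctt
Muc20: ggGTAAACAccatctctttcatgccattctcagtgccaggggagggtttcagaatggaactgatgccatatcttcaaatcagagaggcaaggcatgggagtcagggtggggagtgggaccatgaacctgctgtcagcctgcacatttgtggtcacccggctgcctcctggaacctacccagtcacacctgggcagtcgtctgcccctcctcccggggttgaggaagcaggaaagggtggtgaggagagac
The motifs, searched on both strands, were a forkhead (FOX) motif TGTTTNC, a STAT motif TTCNNNGAA, an AP-1 motif TGANTCA, an ETS motif CCGGAAG, an SP and KLF motif GGGCGG and an NKX2 motif CACTTGA. The Muc1 stretch held GGGCGG at 91 and 49 bases before the start, a motif found in 32.7% of 32851 promoters of this length. The Muc20 stretch held the FOX motif on its minus strand at 248 bases before the start, which 17.8% of promoters also did. The Muc4 stretch held none of these letters. STAT, AP-1, ETS and NKX2 motifs, which no printed stretch held, were found in 7.02%, 6.75%, 6.91% and 2.68% of promoters. RefSeq promoters were matched for 6 of the 9 members.

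Muc1, a membrane mucin with a signalling tail on the apical side of alveolar and airway cells, was the most abundant mucin in every library. Its gene lies at chr3:89032979-89037303 (mm9, plus strand), with 2346 exon bases counted. Muc1 measured 148.6, 97.7 and 93.9 CPM in control replicates 1, 2 and 3. In tumour replicates 1, 2 and 4 it measured 264.7, 551.6 and 419.7 CPM. Every tumour was above every control, with replicate 1 the lowest tumour and the highest control. Muc1 rose 3.63-fold, from 113.4 ± 30.5 to 412.0 ± 143.6 CPM (SD, n = 3 each), with a fitted log2 fold change of 1.86 ± 0.30 (SE, edgeR, adjusted p = 0.001613). Leaving out each library in turn gave 1.599 (without tumour replicate 2) to 2.13 (without tumour replicate 1), with edgeR adjusted p of 0.0001704 to 0.01539.

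Muc4, a very large membrane mucin whose EGF-like domains can bind the receptor Erbb2, lies at chr16:32735972-32782477 (mm9, plus strand), with 11757 exon bases counted. It was nearly level among the controls, at 37.1, 42.8 and 41.6 CPM. The tumours held 160.9, 291.4 and 207.6 CPM. The lowest tumour was far above the highest control. Muc4 rose 5.43-fold, from 40.5 ± 2.98 to 220.0 ± 66.1 CPM (SD, n = 3 each), with a fitted log2 fold change of 2.44 ± 0.23 (SE, edgeR, adjusted p = 0.000108). It was 2.65 without tumour replicate 1 and 2.19 without tumour replicate 2.

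Muc20, a small membrane mucin described as a binding partner of the receptor Met, is the convergent neighbour of Muc4, at chr16:32777505-32797521 (mm9, minus strand), with 4027 exon bases counted. Its controls held 11.7, 9.44 and 9.52 CPM. The tumours held 42.6, 82.2 and 69.5 CPM, and the groups were well apart. Muc20 rose 6.33-fold, from 10.2 ± 1.30 to 64.8 ± 20.2 CPM (SD, n = 3 each), with a fitted log2 fold change of 2.66 ± 0.26 (SE, edgeR, adjusted p = 0.0001184). It was 2.92 without tumour replicate 1 and 2.46 without tumour replicate 2.

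Muc4 and Muc20 share 627 exon bases, which are 5.33% of those of Muc4 and 15.6% of those of Muc20, and the counting used no strand and assigned a read to every gene that it overlapped. Reads of Muc4 spread evenly along its exons would make up 15.9% to 24.2% of the Muc20 count of a library. With such reads subtracted from each gene, the log2 fold changes were 2.43 for Muc4 (edgeR adjusted p = 0.0001114) and 2.72 for Muc20 (edgeR adjusted p = 0.0001516). Both genes thus remained higher after the subtraction.

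The remaining membrane mucins were rare. Muc16, which carries the CA125 antigen and binds mesothelin, lies at chr9:18299899-18317329 (mm9, minus strand). It had 16, 64 and 27 reads in the controls, or 0.435, 0.973 and 0.548 CPM. The tumours had 2, 0 and 0 reads, so every tumour was below every control. Muc16 fell (log2 fold change -5.51 ± 0.85, SE, edgeR, adjusted p = 0.001175). The 107 control reads against 2 tumour reads gave a ratio of 57.4 (95% exact binomial interval 15.5 to 480.1), adjusted for library size. Both tumour reads came from replicate 1. Tumour replicates 2 and 4 together were at least 23.9-fold lower than control lung, taking 3 reads over the group as the floor. Without tumour replicate 2 the ratio was 37.8 (10.2 to 316). The deposited gene model counted only 1035 exon bases of Muc16, which is 4.07% of the length of its longest transcript in GENCODE M21, so these values describe a small stretch of the gene. Such intervals and floors cover counting error only, and they treat each read as independent. No option for pairs was set in the counting, so both ends of a fragment may have been counted as separate reads. The intervals here and below would then be too narrow.

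Muc15, a smaller membrane mucin, lies at chr2:110561497-110579684 (mm9, plus strand) and shares 1.71% of its exon bases with Ano3. It had 17, 43 and 14 control reads, or 0.462, 0.654 and 0.284 CPM. The tumours had 6, 0 and 0 reads, again with all tumour reads in replicate 1. Muc15 fell (log2 fold change -3.63 ± 0.95, SE, edgeR, adjusted p = 0.01533), and the 74 control against 6 tumour reads gave a ratio of 13.2 (95% interval 5.80 to 37.2). The ratio was 8.71 (3.82 to 24.5) without tumour replicate 2, and tumour replicates 2 and 4 together were at least 16.5-fold lower than control lung. The call was lost without control replicate 2, which held most of the reads (edgeR adjusted p = 0.06444).

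Muc3 and Muc13, membrane mucins best known from the gut, did not pass the low count filter and were near the limit of these libraries. Muc3 (chr5:137610794-137625994, mm9, minus strand) had 0, 0 and 2 reads in the controls and 2, 4 and 4 in the tumours, a ratio of 4.66 with a 95% interval of 0.993 to 43.7. That ratio was 2.64 (0.563 to 24.8) without control replicate 2, and without control replicate 3, which held both control reads, the tumours were at least 2.10-fold higher. Muc13 (chr16:33794123-33820020, mm9, plus strand, 6.06% of exon bases shared with Gm15657) had 9, 10 and 4 control reads and 0, 8 and 2 tumour reads. The Muc13 ratio of control to tumour was 2.47 (95% interval 1.13 to 5.81) and moved to 8.12 (2.01 to 71.1) without tumour replicate 2 and to 1.54 (0.706 to 3.63) without tumour replicate 1. The groups of both genes overlapped, and with no low count filter edgeR called neither (adjusted p = 0.282 for Muc3 and 0.391 for Muc13).

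The gel-forming members did not move alike. Muc5ac, the inducible gel-forming mucin, lies at chr7:148974877-149005136 (mm9, plus strand), with 9442 exon bases counted. It was scarce in control lung, at 0.815, 1.46 and 1.95 CPM. The tumours held 14.1, 8.66 and 9.85 CPM, all above the controls and with replicate 1 the highest. Muc5ac rose 7.67-fold, from 1.41 ± 0.569 to 10.9 ± 2.89 CPM (SD, n = 3 each), with a fitted log2 fold change of 2.94 ± 0.37 (SE, edgeR, adjusted p = 0.0004186). Leaving out each library gave 2.68 (without control replicate 1) to 3.28 (without control replicate 3). In reads it went from 30, 96 and 96 to 865, 482 and 454.

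Muc5b, at chr7:149024975-149058990 (mm9, plus strand, 14984 exon bases counted), varied widely within each group. The controls held 13.7, 37.7 and 64.8 CPM. The tumours held 73.2, 26.4 and 26.7 CPM. The groups overlapped, with the lowest library a control and the highest a tumour. Means were 38.7 ± 25.6 and 42.1 ± 26.9 CPM (SD, n = 3 each), with a log2 fold change of 0.12 ± 0.57 (SE, edgeR, adjusted p = 0.886). Its sign turned without control replicate 1 (-0.28, edgeR adjusted p = 0.6976) and without tumour replicate 1 (-0.51, edgeR adjusted p = 0.436), and it was 0.75 without control replicate 3 (edgeR adjusted p = 0.3872), so no direction can be given for Muc5b.

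Muc5ac and Muc5b are neighbours, separated by 19838 bases in a row of gel-forming mucin genes that runs over 239120 bases of chromosome 7 from Muc6 through Muc2 to Muc5b. Within a library, log2 CPM of Muc5ac minus that of Muc5b was -4.01, -4.65 and -5.03 in the controls. It was -2.37, -1.61 and -1.44 in the tumours. The pair difference was thus 2.76 higher in tumour, without overlap, at an exact two-sided permutation p of 0.1, the smallest that 3 against 3 libraries can give (0.1333 adjusted over 4 pairs of members). Muc6 and Muc2, the other genes of the row, were not called. Muc6, a gastric mucin, averaged 5.20 ± 1.54 CPM in control and 2.75 ± 0.88 CPM in tumour (SD, n = 3 each), with a log2 difference of -0.92 ± 0.34 (SE, edgeR, adjusted p = 0.05748) that passed with DESeq2 (adjusted p = 0.02441), with limma-voom (adjusted p = 0.04298) and in edgeR without tumour replicate 4 (adjusted p = 0.03839). Muc2, the intestinal mucin, had 0.747 ± 0.114 and 0.592 ± 0.448 CPM, with an edgeR adjusted p of 0.6791 and a log2 difference of -0.33 that was -1.09 without tumour replicate 1 and 0.093 without tumour replicate 2.

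**Figure D2:**
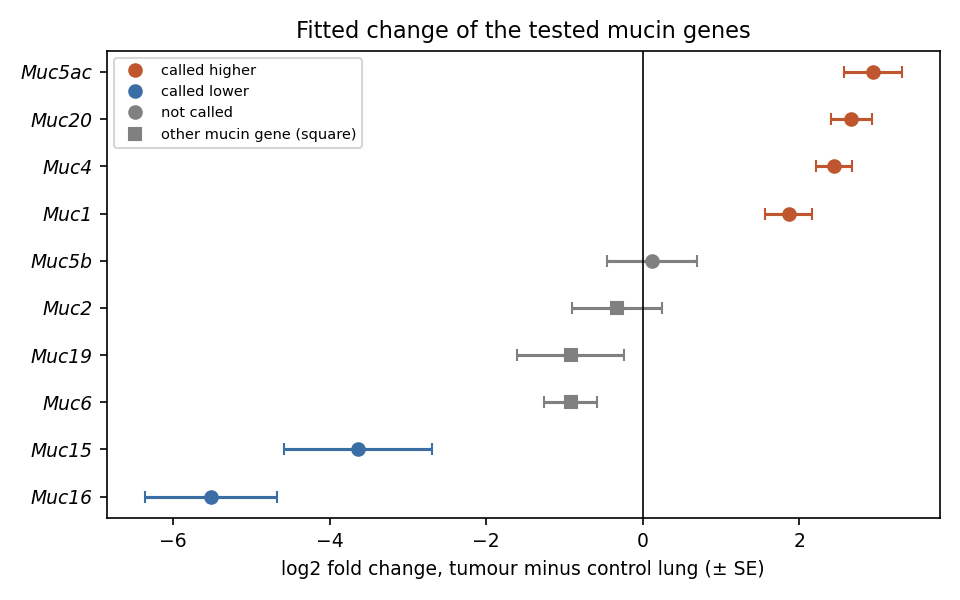
Fitted log2 fold change of tumour minus control (points, with bars of 1 SE) for the tested mucin members (circles) and the other mucin genes Muc2, Muc6 and Muc19 (squares), coloured by call at an adjusted p of 0.05. Muc5ac, Muc20, Muc4 and Muc1 lie between 1.86 and 2.94, Muc15 and Muc16 at -3.63 and -5.51, and the bar of Muc5b crosses 0.

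The other membrane pairs were also compared within libraries. Log2 CPM of Muc20 minus Muc4 averaged -1.99 ± 0.28 in control and -1.77 ± 0.18 in tumour (SD, n = 3 each), a difference of 0.21 with overlapping groups (exact permutation p = 0.3). Muc4 minus Muc1 went from -1.45 ± 0.47 to -0.88 ± 0.15 and Muc20 minus Muc1 from -3.44 ± 0.19 to -2.66 ± 0.08, without overlap (exact permutation p = 0.1 for each, n = 3 each). Relative to Muc1, Muc4 and Muc20 were therefore higher in each tumour than in any control, at the smallest p that the design allows.

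Levels of different genes were compared per length, as CPM per kilobase of counted exon (RPKM). In control lung the order began with Muc1 at 48.3 ± 13.0 RPKM, followed by Muc4 at 3.45 ± 0.254, Muc5b at 2.59 ± 1.71 and Muc20 at 2.54 ± 0.324 RPKM (SD, n = 3). Muc5b overlapped with both Muc4 and Muc20, while every control held more Muc4 than any control held Muc20. Muc16 followed at 0.630 ± 0.274, then Muc5ac at 0.149 ± 0.0603, Muc15 at 0.131 ± 0.0517, Muc13 at 0.0524 ± 0.0270 and Muc3 at 0.00698 ± 0.0121 RPKM. Muc16 overlapped with Muc5b, Muc5ac with Muc15, and Muc15 with Muc13. The place of Muc16 rests on a gene model of 4.07% of the length of its longest transcript.

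In tumour Muc1 stood at 175.6 ± 61.2 RPKM, Muc4 at 18.7 ± 5.63 and Muc20 at 16.1 ± 5.02 RPKM (SD, n = 3), with the latter pair overlapping. Muc5b at 2.81 ± 1.80 and Muc5ac at 1.15 ± 0.306 RPKM did not overlap. Muc3, Muc13, Muc16 and Muc15 each averaged 0.0329 RPKM or less and overlapped. Muc1 made up 78.3% to 89.2% of the summed RPKM of the members in control libraries and 78.6% to 83.1% in tumours. The members summed to 57.9 ± 11.4 RPKM in control and 214.4 ± 69.8 RPKM in tumour (SD, n = 3 each), 3.71 times as much. The gel-forming pair contributed 1.41%, 5.19% and 8.87% of this sum in the controls and 4.44%, 0.947% and 1.31% in the tumours, which overlapped. Repeated sequence may be counted unevenly: 32-base words that recur within the transcript made up 24.8% of Muc5b, 24.2% of Muc5ac and 17.8% of Muc4, and 14.7% of Muc20 words also occur in another gene.

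The tumour libraries also held more RNA of general epithelial genes. All 8 genes of a pan-epithelial list (Epcam, Cdh1, Cldn7, Esrp1, Esrp2, Grhl2, Krt8 and Krt18) were higher in tumour, and their mean log2 CPM went from 5.05 ± 0.13 to 6.90 ± 0.25 (SD, n = 3 each), a difference of 1.85 (exact permutation p = 0.1). Beside this mean in the same library, Muc1 stood at 2.05, 1.55 and 1.65 log2 units in the controls and at 0.87, 2.29 and 2.02 in the tumours. These averages differed by -0.02 (exact permutation p = 0.9, n = 3 each), with -0.30 to 0.41 when libraries were left out in turn. No difference of Muc1 beside the mean of these epithelial genes was thus found. The listed genes themselves rose unevenly, from 0.74 log2 units for Cdh1 to 2.91 for Krt18. Among the tumours, replicate 1 had the most Krt18 (484.2 CPM) and the least Cdh1 (226.6 CPM), so its position depends on the list.

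Muc4 and Muc20 were 0.55 and 0.76 log2 units higher beside the epithelial mean in tumour, with overlapping groups (exact permutation p = 0.3 for each, n = 3 each). In both, tumour replicate 1 lay among the controls and replicates 2 and 4 above them. Muc5ac was 1.12 log2 units higher, and its tumours at -3.35, -3.70 and -3.39 did not overlap with its controls at -5.40, -4.48 and -3.92 (exact permutation p = 0.1, adjusted to 0.375 over the 5 members with at least 10 reads in every library). Muc5b was 1.64 log2 units lower, with overlap (exact permutation p = 0.2, n = 3 each), and the difference was -2.32 without control replicate 1.

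**Figure D3:**
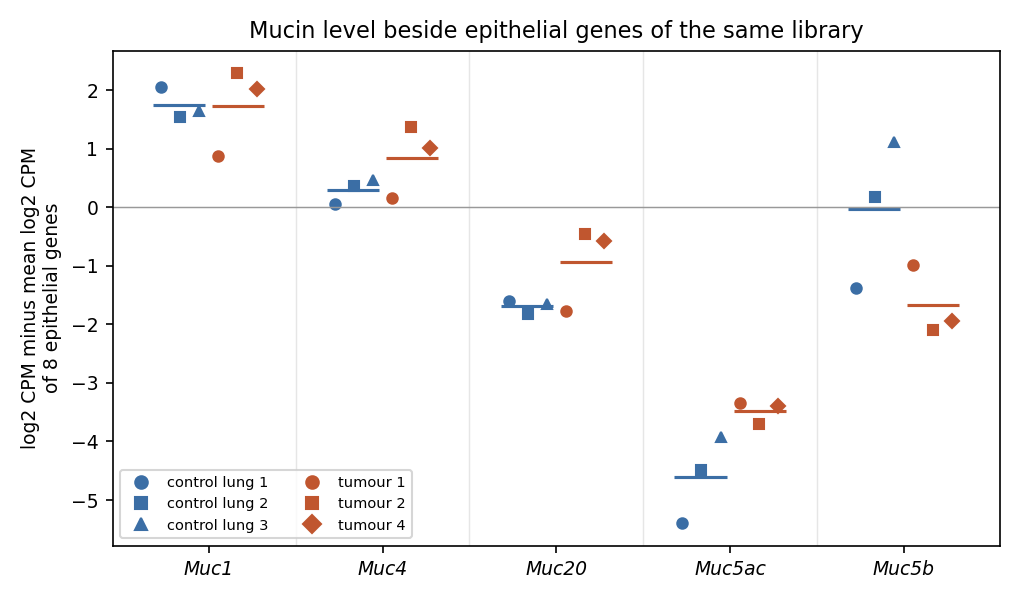
Log2 CPM of 5 mucins minus the mean log2 CPM of 8 pan-epithelial genes in the same library, with control lung in blue, tumour in orange and horizontal bars at the group means. The Muc1 means are level, Muc5ac is separated by group, and tumour replicate 1 (circle) is the lowest tumour for Muc1, Muc4 and Muc20.

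Cell type markers were also compared between the groups. Their counts, here and in the next paragraph, stand beside 18.1% higher and 23.8% lower over all tested genes. Of 8 AT2 markers 7 were higher in tumour and none lower, with the sums given above. Of 8 ciliated cell markers 8 were lower, from 193.7 to 298.8 CPM summed in control to 2.86 to 3.99 CPM in tumour. The ciliated cell markers Foxj1, Dnah5, Ccdc153 and Tekt1 and the club cell marker Gabrp passed the low count filter only through control libraries. They could therefore only come out lower and add no support to the counts of lower markers. Of 8 club cell markers 7 were lower, and these 7 summed to 10415 to 17135 CPM in control and 33.1 to 54.9 CPM in tumour. The 1 that was higher was Aox3, an aldehyde oxidase, which made the sum over all 8 markers 10600 to 17364 CPM in control and 489 to 1005 CPM in tumour. The defining club cell product Scgb1a1, a secretoglobin, fell from 11216 ± 3442 to 6.34 ± 2.79 CPM (SD, n = 3 each; log2 fold change -10.79 ± 0.55, SE, edgeR, adjusted p = 1.292e-05).

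Of 6 airway goblet cell markers tested, 2 were higher (Spdef and Foxa3), 2 lower (Agr2 and Tff2) and 2 not called, with summed ranges of 3.64 to 10.6 CPM in control and 8.46 to 16.6 CPM in tumour. Foxa3 passed the low count filter only through tumour libraries, and Agr2 and Tff2 only through control libraries. The filter thus fixed the directions of Foxa3, Agr2 and Tff2. Alveolar type 1 markers were lower for 6 of 8 and endothelial markers for 6 of 6. Of 6 mesothelial markers 5 were lower, summing to 67.8 to 78.2 CPM in control and 0.933 to 3.04 CPM in tumour. Wt1 and Lrrn4, among these 5, passed the low count filter only through control libraries and could only come out lower. Krt19, a keratin that other epithelia also express, was not called, and with it the sums were 119.8 to 146.4 and 41.0 to 59.3 CPM. Of 6 basal cell markers 1 could be tested and was not called, with sums of 0.869 to 1.22 and 0.521 to 2.45 CPM. Of the 2 tested submucosal gland markers Lyz2, also a macrophage and AT2 gene, was higher (edgeR adjusted p = 0.03546) and Ltf lower. The call of Lyz2 was lost when any library but tumour replicate 1 was left out (edgeR adjusted p of up to 0.1325). The part of these cell types in the mucin differences was not tested.

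Transcripts with the within-group pattern of Muc5b included other airway secretory products, chosen here after their values were seen. Scgb3a1, a secretoglobin of airway secretory cells, had 4.13, 10.9 and 43.6 CPM in the controls, in the same order as Muc5b, and 6.62, 2.50 and 2.17 CPM in the tumours. Its call as lower (edgeR adjusted p = 0.04845) was lost without control replicate 2, control replicate 3, tumour replicate 2 or tumour replicate 4, with adjusted p of up to 0.2856. The fitted log2 fold change of Scgb3a1 was -2.37 with all libraries and -0.95 without control replicate 3, and the call was also lost with limma-voom (adjusted p = 0.1083), with the 2-fold threshold test (0.163) and without mitochondrial ribosomal RNA (0.0521). Bpifb1, a mucosal defence protein of the airways, had 0.163, 1.85 and 3.11 CPM and then 0.441, 0.395 and 0.152 CPM, and was called lower only without control replicate 1 (edgeR adjusted p = 0.006385), with DESeq2 (0.0127) or with no low count filter (0.0448). Tff2, a trefoil peptide, had 0.353, 1.23 and 2.23 CPM and then 0.0327, 0 and 0 CPM. In each of these, as in Muc5b, control replicate 1 was the lowest control, control replicate 3 the highest and tumour replicate 1 the highest tumour. Among other mucus partner genes Dmbt1, Fcgbp and Bpifa1 also had this order. Others did not, among them Agr2, Agr3, Clca2 and Ltf, the last at 1.58, 5.14 and 4.29 CPM in the controls. None of these genes was among those nearest to Muc5b in profile, named below. The share of all tested genes with this order was not counted, so the order is only described. Scgb1a1 had the opposite order among the controls, at 15078, 10100 and 8470 CPM. Bpifa1, a mucosal surface protein, had at most 0.690 CPM in control and 95.2, 13.6 and 1.84 CPM in tumour (log2 fold change 6.48 ± 1.42, SE, edgeR, adjusted p = 0.007075, and 4.27 without tumour replicate 1), and it was not called by limma-voom (adjusted p = 0.0998).

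**Figure D4:**
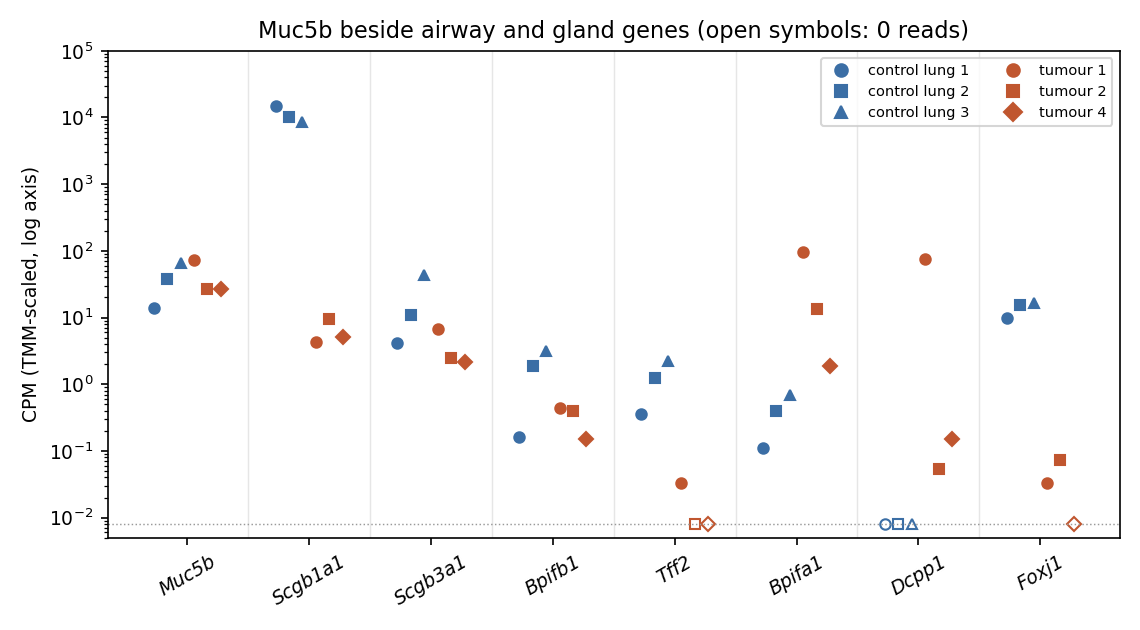
CPM of Muc5b and of airway and gland genes (log axis) in each library, with control lung in blue, tumour in orange and open symbols for 0 reads. Scgb3a1, Bpifb1, Tff2, Bpifa1 and the ciliated cell factor Foxj1 share with Muc5b the order of the controls, with replicate 1 lowest and replicate 3 highest. Scgb1a1 and Foxj1 lie far lower in every tumour.

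Transcription factors and regulators linked to goblet cells were next. The list holds factors known to drive goblet cell differentiation as well as Foxa2 and Nkx2-1, which are known to restrain it and were both higher. Of 21 listed genes 20 were tested, 13 were higher and 2 lower, beside 18.1% and 23.8% of all tested genes. Their median log2 fold change was 1.09, beside 0.01 over all genes. Foxa3 and Hnf4a passed the low count filter only through tumour libraries, and Sox2 only through control libraries. The filter thus fixed the directions of these genes, and they add no support to the counts. Sox9 also needed its tumour libraries to pass. Sox9, a factor of distal lung progenitors, rose from 0.204 ± 0.105 to 58.6 ± 22.1 CPM (SD, n = 3 each; log2 fold change 8.14 ± 0.44, SE, edgeR, adjusted p = 1.387e-05). Ehf, an epithelial ETS factor, rose from 36.5 ± 5.58 to 192.4 ± 5.17 CPM (log2 fold change 2.40, edgeR adjusted p = 2.684e-05). Xbp1, the unfolded protein response factor and the most abundant of the list, rose from 127 ± 10.7 to 240.7 ± 21.3 CPM (log2 fold change 0.92, edgeR adjusted p = 0.001529).

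The goblet cell factors Foxa3 and Spdef rose at low levels, Foxa3 from 0.0942 ± 0.0354 to 6.22 ± 1.87 CPM (edgeR adjusted p = 3.386e-05) and Spdef from 0.504 ± 0.121 to 2.84 ± 1.57 CPM (edgeR adjusted p = 0.003241). Like Muc5ac, both were highest in tumour replicate 1, at 8.34 CPM for Foxa3 and 4.64 CPM for Spdef. The airway factor Sox2 fell by 6.35 and Klf4 fell by 2.98 on the log2 scale (edgeR adjusted p = 0.0006595 and 0.0001338). The only tumour reads of Sox2 were in replicate 2, without which its log2 fold change was -10.36. The interleukin signalling genes Stat6, Il4ra and Il13ra1 were not called.

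Among the genes that fold and accompany secreted mucus, more were called lower than higher. Of 18 listed genes 13 were tested, 3 were higher and 7 lower, beside 18.1% and 23.8% of all tested genes. Their median log2 fold change was -2.37. Agr2, Agr3 and Tff2 passed the low count filter only through control libraries, and Clca2 only through tumour libraries. The filter thus fixed the directions of these genes, and they add no support to the counts. Agr3, a disulfide isomerase family member of ciliated cells, fell from 2.99 ± 0.165 to 0.0109 ± 0.0189 CPM (SD, n = 3 each; log2 fold change -7.69, edgeR adjusted p = 7.754e-05, and -10.24 without tumour replicate 1). Agr2, the isomerase needed for folding gel-forming mucins, fell from 0.428 ± 0.082 to 0.0447 ± 0.0496 CPM (log2 fold change -3.09 ± 0.74, SE, edgeR, adjusted p = 0.01024, and -4.26 without tumour replicate 1). Its adjusted p reached 0.04877 without control replicate 3. The higher ones were Bpifa1, Clca2 and Dmbt1. Clca2 lost its call without control replicate 2, control replicate 3 or tumour replicate 1 (edgeR adjusted p of up to 0.08605), and Dmbt1 without any 1 control or tumour replicate 1 (edgeR adjusted p of up to 0.1197). Clca1, the goblet cell product known from allergic airways, had at most 0.152 CPM in any library, and Tff1 and Zg16 had no read.

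The enzymes that build mucin O-glycans were described by step. Of 22 initiation and core genes 20 were tested, with 6 higher, 7 lower and a median of 0.02 log2 units. For comparison, 18.1% of all tested genes were higher and 23.8% lower. Galnt9 passed the low count filter only through control libraries, so it could only come out lower. Galnt15 and Galnt18, transferases of the family that attaches the initial sugar, fell by 2.57 and 2.59 on the log2 scale (edgeR adjusted p = 1.712e-05 and 5.281e-05). Galnt1, the most abundant of the list by its mean over the 6 libraries, was not called (87.7 ± 12.8 and 104.7 ± 13.1 CPM, SD, n = 3 each, edgeR adjusted p = 0.2533). C1galt1, which makes the core 1 structure, rose from 39.4 ± 6.84 to 107.5 ± 5.53 CPM (log2 fold change 1.45 ± 0.16, SE, edgeR, adjusted p = 0.0002425), and Galnt3 rose by 1.64 log2 units (edgeR adjusted p = 0.00145).

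Of 21 genes for extension, sialylation and fucosylation 20 were tested, 11 were higher and 4 lower, with a median of 0.65 log2 units. All tested genes together had 18.1% higher and 23.8% lower. Fut1 passed the low count filter only through tumour libraries, so it could only come out higher. The sialyltransferases St3gal6 and St6galnac4 rose by 1.35 and 1.96 log2 units (edgeR adjusted p = 0.0001603 and 0.0002144), although 26.4% of St3gal6 exon bases are shared with Dcbld2, and St3gal1, the most abundant of the list, rose from 106.4 ± 11.1 to 176.1 ± 24.1 CPM (edgeR adjusted p = 0.007617). Fut2, the secretor fucosyltransferase of mucosal surfaces, had 1.01, 0.730 and 1.38 CPM in the controls. Its tumours held 72.5, 25.0 and 16.2 CPM, with replicate 1 the highest. The log2 fold change of Fut2 was 5.20 ± 0.62 (SE, edgeR, adjusted p = 0.0003339) and 4.35 without tumour replicate 1.

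**Figure D5:**
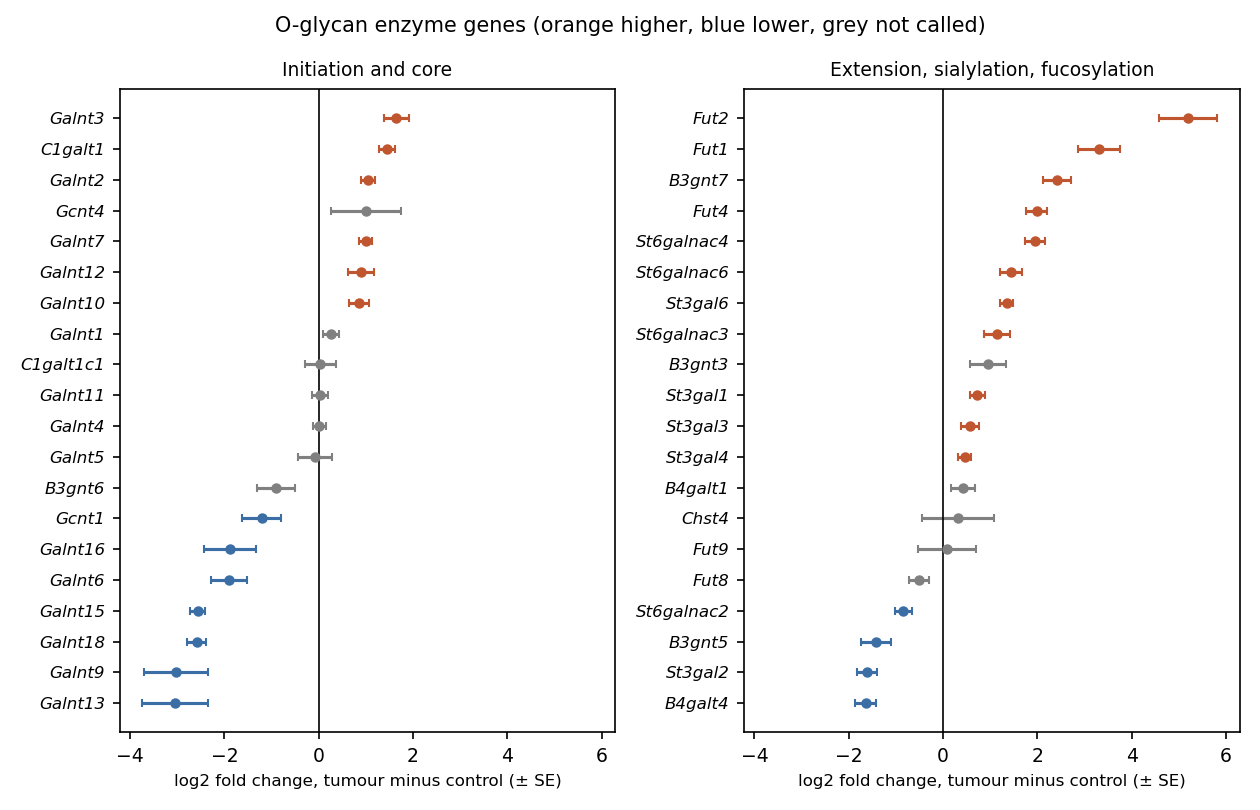
Fitted log2 fold change (points, with bars of 1 SE) of 20 initiation and core enzymes (left) and 20 extension, sialylation and fucosylation enzymes (right), coloured by call at an adjusted p of 0.05. The left panel has 6 genes called higher and 7 lower, and the right panel 11 higher and 4 lower, with Fut2 at 5.20.

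Regulated release of mucin granules showed no common direction, with 5 of 15 genes higher, 5 lower and 5 not called. The shares over all tested genes were 18.1% higher and 23.8% lower. Rab27a, a small GTPase that docks secretory granules, rose from 29.4 ± 3.97 to 238.9 ± 27.3 CPM (SD, n = 3 each; log2 fold change 3.02 ± 0.18, SE, edgeR, adjusted p = 1.712e-05). Stx11, a syntaxin, fell from 17.6 ± 1.13 to 4.35 ± 0.818 CPM (edgeR adjusted p = 0.0001479).

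Of 14 partners and sheddases of membrane mucins 5 were higher, 3 lower and 6 not called. Over all tested genes 18.1% were higher and 23.8% lower. Erbb3 rose from 56.9 ± 1.92 to 223.3 ± 46.7 CPM (SD, n = 3 each; log2 fold change 1.97, edgeR adjusted p = 9.168e-05). Erbb2, the receptor bound by Muc4, rose from 29.1 ± 5.36 to 53.5 ± 3.65 CPM (log2 fold change 0.88, edgeR adjusted p = 0.00354). Met, named above as a partner of Muc20, rose from 119.3 ± 27.7 to 383.2 ± 26.3 CPM (log2 fold change 1.68, edgeR adjusted p = 0.0003148).

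Ctnnb1, which encodes beta-catenin, a protein bound by the Muc1 tail, rose from 558.9 ± 57.3 to 1120 ± 140 CPM (SD, n = 3 each; edgeR adjusted p = 0.002935). Egfr fell from 51.0 ± 4.31 to 3.70 ± 1.65 CPM (log2 fold change -3.78 ± 0.32, SE, edgeR, adjusted p = 6.096e-05). Msln, which encodes the mesothelin precursor bound by Muc16, fell from 8.35 ± 3.85 to 0.863 ± 0.564 CPM (log2 fold change -3.26 ± 0.61, SE, edgeR, adjusted p = 0.003326). Msln is also a mesothelial marker, and its part in the fall of Muc16 was not tested.

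Among mucin-like genes outside the members, 8 were tested, 1 was higher and 2 were lower. These counts stand beside 18.1% higher and 23.8% lower over all tested genes. Ovgp1, an oviductal glycoprotein gene that shares 28.7% of its exon bases with Wdr77, rose from 3.06 ± 0.361 to 8.21 ± 0.932 CPM (SD, n = 3 each; edgeR adjusted p = 0.001332). Emcn, an endothelial sialomucin, fell from 45.6 ± 7.09 to 15.8 ± 3.52 CPM (edgeR adjusted p = 0.0005803), and Mcam, an endothelial adhesion molecule, fell by 1.19 log2 units (edgeR adjusted p = 0.002425). Cd164, the most abundant, was not called, at 249.2 ± 52.3 and 356.4 ± 25.4 CPM (edgeR adjusted p = 0.05956), but passed without control replicate 1 (edgeR adjusted p = 0.03867), with upper-quartile scaling (0.0476) and with limma-voom (0.0409).

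The genes whose profile over the 6 libraries lay nearest to that of each tested mucin were found by the root mean square difference of centred log2 CPM. For Muc1 these were Acsl4 (0.0880 log2 units), Slc34a2 (0.0909) and Lrg1 (0.103). Slc34a2, a phosphate carrier of AT2 cells, had 2086 ± 664 CPM in control and 7431 ± 2491 CPM in tumour (SD, n = 3 each). For Muc4 they were Mat1a (0.104), Tspan11 (0.139) and Tnfrsf10b (0.150). For Muc20 they were Guca2a (0.0942), Elovl7 (0.118) and Rabgap1l (0.128).

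Muc5ac was nearest to Gm17230 (0.186), Fut1 (0.228) and Btnl2 (0.239). Fut1, an H antigen fucosyltransferase from the extension list, had at most 0.152 CPM in control and 1.11 to 1.27 CPM in tumour. Muc16 was nearest to Ms4a15 (0.120), Elovl4 (0.146) and Gm12295 (0.192), and Muc15 to Cdkl4 (0.267), Atcay (0.301) and Cml5 (0.338). Muc5b was nearest to Cpne7 (0.302), 1700001O22Rik (0.311) and Iglon5 (0.314).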

How the data were processed

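RNA of 6 libraries was sequenced, 3 of control lung and 3 of tumour. The authors deposited a table of raw read counts per gene name, made with featureCounts 1.6.5 over exons of GENCODE M1 (mm9), per the file headers: a read was counted for every gene it overlapped, strand was not used, and no option for multiply mapped reads or pairs was set. The submitters' processing notes also name R 3.6.0, STAR, edgeR and limma, and list both GRCm38 and mm9. The aligner's version and the read length are not given in the sources used here. From 17.6% to 25.3% of counts in a library were mitochondrial ribosomal RNA.

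The counts were fitted with edgeR 4.0.16 (R 4.3.3): filterByExpr with a minimum count of 10, TMM scaling, and the quasi-likelihood test of group over all 6 libraries, with Benjamini-Hochberg adjustment over 20001 genes and a threshold of 0.05. Fold changes are tumour over control. Each SE was derived from the F statistic. CPM are TMM-scaled, log2 CPM have a prior count of 2, and RPKM divide by the exon length in the deposited table. Low counts were pooled per group for a ratio with an exact binomial 95% interval. The scripts were tested on simulated data. Alternatives used DESeq2 1.42.0, limma-voom (limma 3.58.1), other scalings and filters, a replicate block, a 2-fold threshold test and each library left out.

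Named genes were all members, and of each list the genes with the 2 smallest p and the most abundant one, plus the 3 nearest genes of each tested member. Spdef, Foxa2, Foxa3, Nkx2-1, Sox2, Klf4, the interleukin signalling genes, Agr2, Clca1, Clca2, Dmbt1, Bpifa1, Bpifb1, Scgb3a1, Tff2, Aox3, Foxj1, Lyz2, Ltf, Dcpp1, C1galt1, Galnt3, Fut1, Fut2, Erbb2, Met, Msln and Mcam were added after their values were seen where the rule did not name them. Hnf4a, Fcgbp, Galnt9, Tekt1, Wt1 and Lrrn4 were added in the same way. Not every gene the rule picks from a marker list is described. The members and lists were chosen with earlier results of these data known. Of 194 list entries 189 matched the table, 7 of them through an older name.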

Additional observations from a re-analysis of the deposited data

How the results depend on the processing

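The count of 4 mucins higher in tumour was the same under each alternative except the replicate block, which gave 3 because Muc1 missed the threshold (log2 fold change 1.67, adjusted p = 0.0707). The count of mucins lower in tumour was 0 with a filter of CPM of at least 1 in 3 libraries, which left Muc15 and Muc16 untested, and 1 to 2 with libraries left out, the 1 being without control lung replicate 2. Genes called in all numbered 3965 with the 2-fold threshold test and 6421 to 9436 with libraries left out. Of 105 values of the members under alternatives, 100 kept direction and call, and 2, both of Muc5b, turned sign (-0.28 without control lung replicate 1 and -0.51 without tumour replicate 1). Of 697 values of other named genes that were refitted, 643 kept direction and call. Among the rest 44 lost the call, 9 gained it and 1 turned sign. With libraries left out, the log2 fold change of Muc5b ran from -0.51 to 0.75 and that of Muc2 from -1.09 to 0.093, the latter without tumour replicate 2. The cause was not tested.

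With the replicate block 3641 genes were called and 1 mucin was lower, since Muc15 had an adjusted p of 0.1205. Other named genes lost their call with this block as well. Among them were Spdef, Agr2, Xbp1, Ctnnb1, St3gal1, Mcam, Ovgp1, Aox3 and Slc34a2 (edgeR adjusted p of 0.0548 to 0.147). The 2-fold threshold test lost the calls of Xbp1, Ctnnb1, St3gal1, Mcam, Ovgp1 and Erbb2, among others. The groups share only the numbers 1 and 2, and the deviations of libraries with the same number correlated at -0.18 and -0.01. Libraries with unlike numbers correlated at -0.12 to 0.18. No pairing by number was seen, but so few values cannot exclude one. Subtracting shared reads of Muc4 and Muc20 and leaving out mitochondrial ribosomal RNA were alternatives chosen after seeing the data, and changed no call of a mucin. Depth limits Muc3, Muc13, Muc15 and Muc16, which have at most 64 reads in a library.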
